A study of Mus musculus with 24 samples.

Results

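A set of 8 endoderm genes, *Gata4*, *Gata6*, *Sox7*, *Sox17*, *Foxa1*, *Foxa2*, *Hnf4a* and *Dab2*, were followed by RNA-seq in mouse embryonic stem cells (ESCs) during the first hours of retinoic acid (RA). They were chosen by symbol, as 8 of the 26264 genes in the table of counts. The cells belonged to the BAP1-AID or the UTX-AID line. Each line is 1 clone in which an HA-AID tag was joined to the endogenous protein, BAP1 (a deubiquitinase of H2AK119ub1) or UTX (a demethylase of H3K27me3), and each clone also overexpressed TIR1, which brings AID-tagged proteins to degradation when the auxin IAA is added. BAP1-AID ESCs without IAA (−IAA) or with IAA (+IAA) and UTX-AID ESCs −IAA or +IAA were each sampled in duplicate before RA and 3 and 6 h into it (0, 3 and 6 h below), for 12 groups and 24 libraries in all. All 4 arms carry the tag and TIR1, so the −IAA arm is the control, and no untagged cells are in these libraries. The study added IAA shortly before RA. In the +IAA arms the time since IAA and the time in RA therefore rose together and cannot be told apart. RA was given in medium without LIF after growth with serum and LIF, so RA and the loss of LIF cannot be told apart.

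These 8 genes work as a network in the embryo. GATA6 and GATA4 are zinc finger factors that drive primitive endoderm, the layer that forms the yolk sac, and SOX17 and SOX7 are the SRY-related factors that act with them. DAB2 is not a transcription factor but an endocytic adaptor of visceral and parietal endoderm, and it serves as a marker of these cells. FOXA2 and FOXA1 are pioneer factors of definitive endoderm and its organs, and HNF4A is the nuclear receptor of visceral endoderm, liver and gut. RA is a long-known inducer of endoderm-like differentiation in embryonal carcinoma and stem cells, over days rather than hours.

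Only *Gata6* and *Foxa1* passed the test for a rise with RA, averaged over the IAA arms. After 6 h of RA, *Gata6* was 14.5-fold higher in BAP1-AID ESCs and 3.22-fold higher in UTX-AID ESCs, and *Foxa1* was 6.56-fold and 3.99-fold higher. The log2 value of *Gata6* in UTX-AID ESCs, 1.69, became 2.34 without replicate 1 of −IAA UTX-AID ESCs at 0 h. For *Gata4*, *Sox7*, *Sox17*, *Foxa2*, *Hnf4a* and *Dab2*, no RA comparison averaged over the IAA arms passed the test in either clone. The estimate for *Sox7* at 6 h in UTX-AID ESCs was 9.72-fold and did not pass, with 0 to 25 counts at 0 h. A gene was called here when edgeR's quasi-likelihood test gave a Benjamini-Hochberg adjusted p under 0.05 over all genes tested and the log2 fold change exceeded 1 in size. In BAP1-AID ESCs 2 of the 8 genes were called at 3 h, where 2.93% of all 15695 tested genes were called, and 2 were called at 6 h, where 5.12% were. In UTX-AID ESCs 1 of the 8 (*Foxa1*) was called at 3 h, where 1.76% of all 16268 tested genes were called, and 2 were called at 6 h, where 2.61% were. The median log2 fold change of the 8 genes at 6 h was 0.25 in BAP1-AID ESCs and 0.27 in UTX-AID ESCs, against 0.01 and 0.00 over all tested genes. All 8 genes passed the filter on low counts in both clones.

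Promoters of 4 of the 8 genes were found in the RefSeq table of GRCm38.p6 (250 bases before to 50 after each start, 8 promoters): *Foxa1*, *Foxa2*, *Hnf4a* and *Dab2*. *Gata4*, *Gata6*, *Sox7* and *Sox17* had no entry. The *Foxa1* promoter is shown because *Foxa1* was called in both clones, the most downstream *Foxa2* promoter as that of the close paralog that was not called, and the upstream *Hnf4a* promoter because it holds the same GATA letters as the latter. Capitals mark a match to a FOXA site (TGTTTAC, or GTAAACA on the other strand) or to a GATA site (AGATAA, or TTATCT on the other strand).
Foxa1, chr12:57546062-57546361, minus strand: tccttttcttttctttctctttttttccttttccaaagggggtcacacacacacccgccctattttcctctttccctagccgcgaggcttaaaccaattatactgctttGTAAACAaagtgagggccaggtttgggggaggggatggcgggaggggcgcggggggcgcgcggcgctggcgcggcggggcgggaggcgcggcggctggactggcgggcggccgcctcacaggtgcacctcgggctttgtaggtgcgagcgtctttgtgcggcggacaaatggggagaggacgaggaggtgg
Foxa2, chr2:148045415-148045714, minus strand: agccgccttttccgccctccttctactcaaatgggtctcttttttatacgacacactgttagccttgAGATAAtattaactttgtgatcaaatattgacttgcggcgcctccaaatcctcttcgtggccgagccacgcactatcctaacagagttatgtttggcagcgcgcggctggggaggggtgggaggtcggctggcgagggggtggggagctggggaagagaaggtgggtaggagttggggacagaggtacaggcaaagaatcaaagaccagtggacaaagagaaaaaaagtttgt
Hnf4a, chr2:163506607-163506906, plus strand: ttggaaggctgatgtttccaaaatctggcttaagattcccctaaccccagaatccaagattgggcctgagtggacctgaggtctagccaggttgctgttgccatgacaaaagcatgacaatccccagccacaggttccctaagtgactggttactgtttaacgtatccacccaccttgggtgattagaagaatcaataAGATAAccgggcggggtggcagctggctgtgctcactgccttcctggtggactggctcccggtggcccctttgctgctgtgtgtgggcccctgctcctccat
The *Foxa1* promoter held the FOXA letters on the opposite strand at −141 to −135 from the start, and 3.65% of all 32851 promoters of this length held them on either strand. The GATA letters lay at −183 to −178 in the *Foxa2* promoter and at −52 to −47 in the *Hnf4a* promoter, and 11.2% of all promoters held them. The upstream *Dab2* promoter held them as well, on the opposite strand at 14 to 19. None of the 8 promoters held the exact letters AGGTCA or TGACCT, searched for the half-site of the RA receptor (16.3% of all promoters). None held the SOX letters (AACAAT or ATTGTT, 10.7%). Variants of these letters were not searched, so a half-site with other letters can be present. No matches overlapped. A match describes the letters of a window and not a bound site.

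The genes lie on 6 chromosomes (GENCODE vM39, GRCm39). *Gata6* covers positions 11051565 to 11086995 of chromosome 18 (plus strand) with 7 exons in its canonical transcript, and *Foxa1* covers 57587414 to 57593702 of chromosome 12 (minus strand) with 2 exons. *Gata4* lies at 63436362 to 63509141 (minus strand) and *Sox7* at 64181006 to 64188352 (plus strand), both on chromosome 14. *Foxa2* lies at 147884797 to 147889005 (minus strand) and *Hnf4a* at 163348728 to 163414830 (plus strand), both on chromosome 2. *Sox17* occupies 4561151 to 4567784 of chromosome 1 (minus strand) and *Dab2* 6329269 to 6470196 of chromosome 15 (plus strand). Counting is not stated to use strand, so reads from overlapping antisense genes may be shared. *Gata6os*, antisense to the start of *Gata6*, and *Hnf4aos*, antisense to *Hnf4a*, held at most 8 and 11 counts in any library, and *Gm16311*, antisense to *Dab2*, held 0 in all libraries. *Gm49390*, *Gm37587* and *Gm18888*, antisense to *Gata4*, *Sox17* and *Dab2*, were not among the counted genes and could not be checked. *R3hdml*, the gene before *Hnf4a*, fell by 1.31 on the log2 scale at 6 h in BAP1-AID ESCs (adjusted p = 0.0004791), and did not pass there at 3 h (−0.13, adjusted p = 0.7935) or in UTX-AID ESCs at 6 h (−0.46, adjusted p = 0.6074).

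The libraries summed to between 42018795 and 54034789 counts (median 49836516). A count of 3, taken as the smallest detectable amount, stood for 0.0545 to 0.0693 CPM (library-size scaled counts, with TMM factors), and limits of this kind cover counting error only. Levels of these genes were low: over the 24 libraries, their mean CPM ranked between percentiles 28.2 (*Sox17*) and 48.2 (*Foxa1*) of the 21042 genes with a count above 0. *Hoxb1* and *Cyp26a1*, known RA targets, were called higher at 3 and 6 h in both clones, and their summed level rose from at most 1.21 CPM at 0 h to at least 495 CPM at 6 h in BAP1-AID ESCs and from at most 0.980 to at least 128 CPM in UTX-AID ESCs. All 10 ESC markers were above 1 CPM in both clones at every time, with median log2 fold changes of −0.09 and −0.10 at 6 h. IAA acts on the proteins, so the transcripts of *Bap1* and *Kdm6a*, which encodes UTX, do not check the depletion.

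At 0 h the levels per length of transcript, in CPM per kilobase and with n = 4 libraries over both IAA arms, had *Dab2* and *Gata4* at the top in both clones. In BAP1-AID ESCs *Dab2* stood at 0.517 ± 0.0963 (SD), *Gata4* at 0.352 ± 0.0802 and *Foxa1* at 0.252 ± 0.0957, followed by *Foxa2* (0.134 ± 0.0666), *Hnf4a* (0.125 ± 0.0735), *Sox17* (0.0904 ± 0.0680), *Gata6* (0.0664 ± 0.0236) and *Sox7* (0.0468 ± 0.0528). In this order, only the steps from *Dab2* to *Gata4*, from *Gata4* to *Foxa1* and from *Foxa1* to *Foxa2* exceeded the SDs of both neighbours, and each other step was within the SD of at least 1 of them. In UTX-AID ESCs the order was *Dab2* (0.274 ± 0.101), *Gata4* (0.246 ± 0.127), *Gata6* (0.123 ± 0.0739) and *Foxa1* (0.110 ± 0.0122), with the other 4 genes between 0.0358 and 0.0608, and no step exceeded the SD of both neighbours other than that from *Foxa1* to *Hnf4a* (0.0608 ± 0.0474). By 6 h of RA *Foxa1* and *Gata6* had moved to the top in both clones. They stood at 1.60 ± 0.267 and 0.969 ± 0.108 in BAP1-AID ESCs, above *Dab2* at 0.364 ± 0.104, and at 0.438 ± 0.0710 and 0.402 ± 0.0940 in UTX-AID ESCs, above *Dab2* at 0.243 ± 0.0535.

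*Gata6*, the earliest of these factors in primitive endoderm, was near the bottom of the 8 before RA in BAP1-AID ESCs. It held 9 to 21 counts per library there, so its folds start from a low base. In −IAA BAP1-AID ESCs its level was 0.171 and 0.416 CPM at 0 h, 1.75 and 2.84 CPM at 3 h and 3.82 and 4.37 CPM at 6 h. In +IAA BAP1-AID ESCs it was 0.270 and 0.367 CPM at 0 h, 2.98 and 2.92 CPM at 3 h and 4.65 and 5.01 CPM at 6 h. The 3 times did not overlap in either arm, and at 6 h the +IAA libraries lay just above the −IAA libraries. Over both arms the mean rose from 0.306 ± 0.109 CPM (SD, n = 4) to 2.62 ± 0.587 CPM by 3 h and was 4.46 ± 0.499 CPM at 6 h. The log2 fold change was 3.08 (SE 0.26, adjusted p = 5.381e-06) at 3 h and 3.86 (SE 0.26, adjusted p = 4.103e-07) at 6 h. Among the 558 genes called higher at 6 h, *Gata6* ranked 126 by size. From 3 to 6 h its log2 difference was 0.78 (SE 0.22, adjusted p = 0.04825), below the fold required for a call. In that comparison 0.599% of all genes were called, and 0 of the 8 genes were called by edgeR or by DESeq2. An unadjusted p under 0.05 was seen for 1 of the 8 and for 3467 of all 15695 tested genes.

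In UTX-AID ESCs *Gata6* started from a wider spread. In −IAA UTX-AID ESCs it was 0.950 and 0.244 CPM at 0 h, 1.36 and 1.63 CPM at 3 h and 2.18 and 2.12 CPM at 6 h. In +IAA UTX-AID ESCs it was 0.754 and 0.319 CPM at 0 h, 0.907 and 1.19 CPM at 3 h and 1.24 and 1.86 CPM at 6 h. The 0 and 6 h libraries did not overlap in either arm, while over both arms the highest library at 0 h (0.950 CPM) lay above the lowest at 3 h (0.907 CPM). The mean over both arms was 0.567 ± 0.340 CPM at 0 h, 1.27 ± 0.305 CPM at 3 h and 1.85 ± 0.433 CPM at 6 h. At 6 h the log2 fold change was 1.69 (SE 0.38, adjusted p = 0.006413), rank 159 of 321 genes called higher. Without replicate 1 of −IAA UTX-AID ESCs at 0 h, the library at 0.950 CPM, the 6 h value became 2.34, and it ranged from 1.35 to 2.34, called each time, as single libraries were left out. At 3 h it was 1.15 (SE 0.38, adjusted p = 0.08421), which did not pass. The 3 h value became 1.80 without that library and 1.52 without replicate 1 of +IAA UTX-AID ESCs at 0 h, both called. It became 0.80 without replicate 2 of the −IAA arm and 0.91 (adjusted p = 0.2519) without replicate 2 of the +IAA arm at 0 h, neither called. From 3 to 6 h the log2 difference was 0.54 (adjusted p = 0.6339), which did not pass.

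*Foxa1* reached its level within 3 h. In −IAA BAP1-AID ESCs it was 0.759 and 0.475 CPM at 0 h, 4.38 and 4.51 CPM at 3 h and 3.98 and 5.97 CPM at 6 h. In +IAA BAP1-AID ESCs it was 0.790 and 1.22 CPM at 0 h, 6.42 and 5.83 CPM at 3 h and 5.16 and 5.60 CPM at 6 h. All libraries with RA lay above all libraries without it, and the 3 and 6 h libraries overlapped. The mean over both arms was 0.812 ± 0.309 CPM (SD, n = 4) at 0 h, 5.29 ± 1.00 CPM at 3 h and 5.18 ± 0.862 CPM at 6 h. The log2 fold change was 2.72 (SE 0.20, adjusted p = 1.428e-06) at 3 h and 2.71 (SE 0.20, adjusted p = 8.603e-07) at 6 h, rank 200 of the 558 genes called higher. Between 3 and 6 h the log2 difference was −0.01 (SE 0.18, adjusted p = 0.9972).

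In −IAA UTX-AID ESCs *Foxa1* was 0.351 and 0.387 CPM at 0 h, 2.56 and 2.10 CPM at 3 h and 1.48 and 1.58 CPM at 6 h. In +IAA UTX-AID ESCs it was 0.377 and 0.299 CPM at 0 h, 1.69 and 1.95 CPM at 3 h and 1.52 and 1.07 CPM at 6 h. The 0 h libraries again lay apart from those with RA, and all 4 libraries at 6 h were below all 4 at 3 h. The means over both arms were 0.353 ± 0.0393 CPM, 2.08 ± 0.368 CPM and 1.41 ± 0.229 CPM. The log2 fold change was 2.54 (SE 0.26, adjusted p = 7.435e-06) at 3 h, rank 62 of 243 genes called higher, and 2.0 (SE 0.26, adjusted p = 6.196e-05) at 6 h. The difference of −0.55 from 3 to 6 h (SE 0.24) did not pass after adjustment (adjusted p = 0.3807). In that comparison 0.117% of all genes were called, and 0 of the 8 genes by edgeR or DESeq2. An unadjusted p under 0.05 was seen for 1 of the 8 and for 1889 of all 16268 tested genes.

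**Figure D1:**
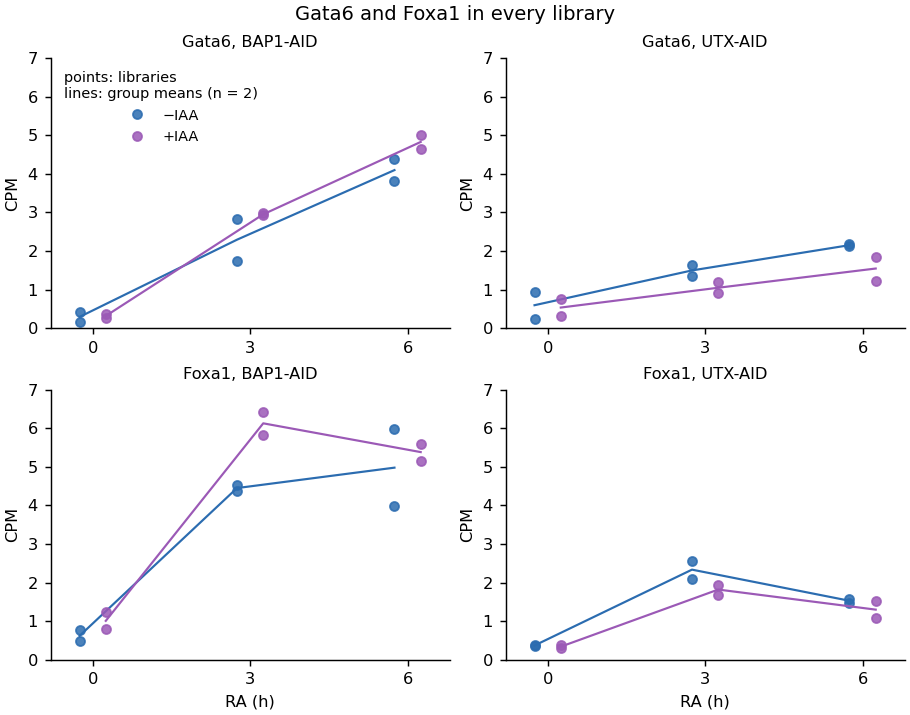
Level of *Gata6* and *Foxa1* in CPM (vertical axes from 0) against hours of RA, with each point 1 library and each line the mean of the 2 replicates of an IAA arm. The highest *Gata6* library, at 6 h, stood at 5.01 CPM, the difference of *Gata6* between 3 and 6 h was called in neither clone, the *Foxa1* mean over both arms was no higher at 6 h than at 3 h, and both were lower in UTX-AID than in BAP1-AID ESCs after RA.

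The other 6 genes were measured at levels that ranged from 0 to 147 counts. *Gata4*, the partner of *Gata6* in primitive endoderm, held 24 to 100 counts in all libraries. In BAP1-AID ESCs it was 1.12 and 1.56 CPM (−IAA) and 1.93 and 1.37 CPM (+IAA) at 0 h, and 1.32 and 1.56 CPM (−IAA) and 1.00 and 0.878 CPM (+IAA) at 6 h. The ranges at 0 and 6 h overlapped. Its log2 fold change was −0.76 (SE 0.28, adjusted p = 0.1159) at 3 h and −0.35 (SE 0.27, adjusted p = 0.4143) at 6 h in BAP1-AID ESCs, and −0.50 (SE 0.44, adjusted p = 0.6249) and −0.45 (SE 0.44, adjusted p = 0.6169) in UTX-AID ESCs. At 3 h in BAP1-AID ESCs 4 of the 8 genes, *Gata4* among them, had an unadjusted p under 0.05, as did 3342 of all 15695 tested genes. *Gata4* is the gene that the study used as its control without an RA response.

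*Dab2*, the endocytic adaptor, held 27 to 147 counts. In BAP1-AID ESCs its mean over both arms was 2.41 ± 0.449 CPM (SD, n = 4) at 0 h, 1.56 ± 0.453 CPM at 3 h and 1.70 ± 0.486 CPM at 6 h, and its log2 fold changes were −0.62 (SE 0.25, adjusted p = 0.1694) and −0.53 (SE 0.25, adjusted p = 0.1636). In UTX-AID ESCs the means were 1.27 ± 0.470, 0.984 ± 0.305 and 1.13 ± 0.250 CPM, and the log2 fold changes were −0.38 (SE 0.33, adjusted p = 0.6144) and −0.17 (SE 0.33, adjusted p = 0.8377). The libraries of the 3 times overlapped in both clones.

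*Hnf4a*, the nuclear receptor, held 0 to 62 counts and had means of 0.551 ± 0.324 CPM at 0 h and 0.829 ± 0.203 CPM at 6 h in BAP1-AID ESCs. Its log2 fold change at 6 h was 0.67 (SE 0.38, adjusted p = 0.2454) in BAP1-AID and −0.69 (SE 0.89, adjusted p = 0.7292) in UTX-AID ESCs. *Foxa2*, the paralog of *Foxa1* and the node and endoderm factor, held 0 to 35 counts, and its log2 fold change at 6 h was −0.37 (SE 0.62, adjusted p = 0.7385) in BAP1-AID and 0.71 (SE 1.16, adjusted p = 0.802) in UTX-AID ESCs. At 6 h in BAP1-AID ESCs *Foxa1* held 196 to 303 counts and *Foxa2* 11 to 21 counts, or 1.60 ± 0.267 and 0.102 ± 0.0343 CPM per kilobase. The difference between the responses of the paralogs was not tested.

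The SOX genes were close to the limit of detection. *Sox17* was at 0 in 9 of 24 libraries and never above 30 counts, and *Sox7* was at 0 in 5 and never above 27 counts. In −IAA BAP1-AID ESCs *Sox17* had 9 and 6 counts at 0 h and 0 and 11 counts at 6 h, and in +IAA BAP1-AID ESCs 13 and 29 counts and then 30 and 14 counts. *Sox7* in UTX-AID ESCs had 25, 0, 0 and 0 counts at 0 h and 10, 15, 13 and 11 counts at 6 h. Its 6 h libraries were alike while 1 library at 0 h exceeded them all, and its unadjusted p of 0.04122 became 0.1898 after adjustment. Without replicate 1 of −IAA UTX-AID ESCs at 0 h, the library with 25 counts, the remaining 3 libraries at 0 h were all at 0 and *Sox7* was called at 6 h, and DESeq2 called it in the +IAA arm, where both libraries at 0 h were at 0. A change of *Sox17* within the spread of these counts was not detectable at this depth.

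**Figure D2:**
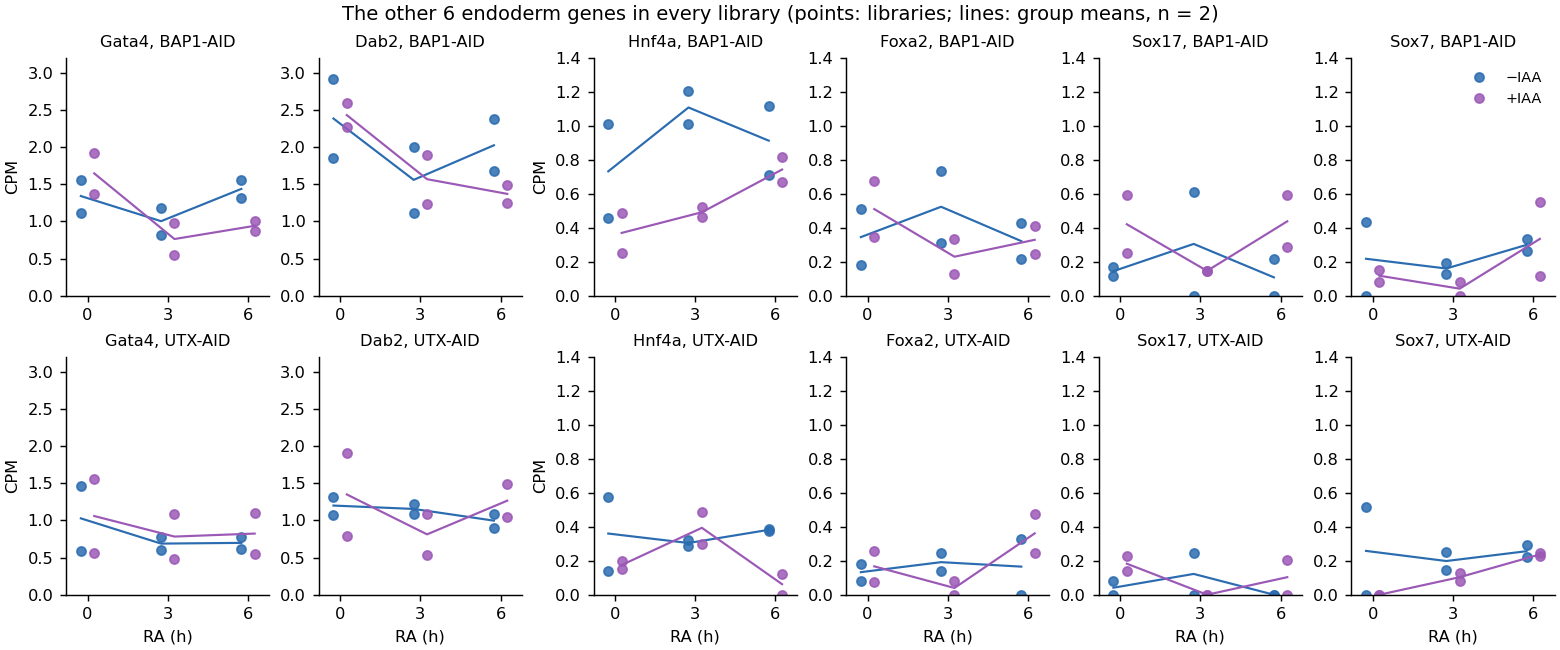
Level in CPM of the 6 genes that were not called for RA, against hours of RA, in BAP1-AID (top) and UTX-AID ESCs (bottom), with points for libraries and lines for the mean of 2 replicates. The vertical axis ends at 3.2 CPM for *Gata4* and *Dab2* and at 1.4 CPM for the other 4 genes. The times overlapped for nearly all of them, and several *Sox17* and *Sox7* libraries lay at 0.

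**Figure D3:**
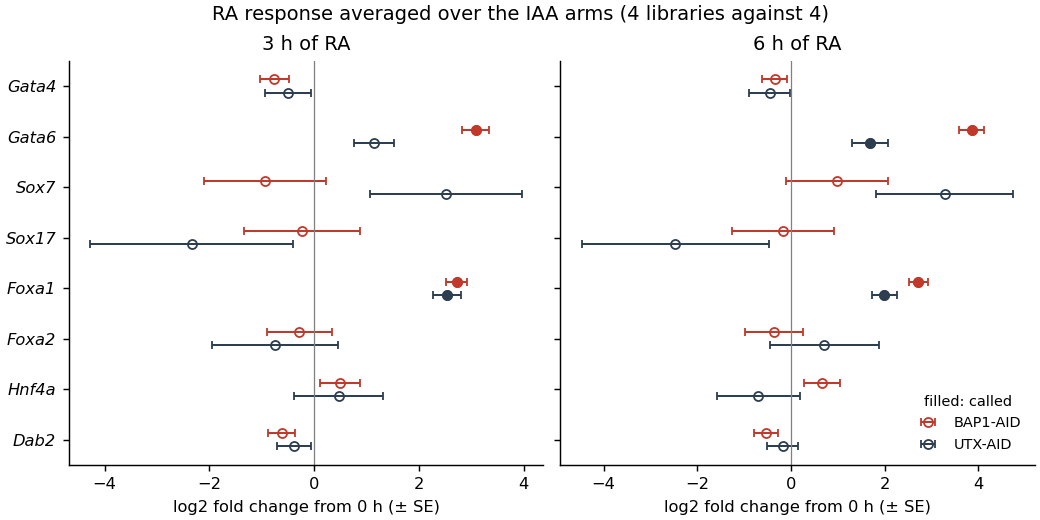
Log2 fold change from 0 h with its SE after 3 h (left) and 6 h (right) of RA, averaged over the IAA arms (4 libraries against 4), in BAP1-AID (red) and UTX-AID ESCs (dark blue), with filled points for called genes. *Gata6* (3.86 and 1.69 at 6 h) and *Foxa1* (2.71 and 2.0) stand apart from 0, and the bars of *Sox17* and *Sox7* are the widest.

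The design asks whether the RA response needs BAP1 or UTX, with depletion that began shortly before RA. Within each arm of the BAP1-AID clone the same 2 genes were called at 6 h, where 4.10% (−IAA) and 4.51% (+IAA) of all genes were. *Gata6* rose by 3.81 (SE 0.38) on the log2 scale without IAA and by 3.91 (SE 0.37) with it, and *Foxa1* rose by 3.01 (SE 0.29) and 2.42 (SE 0.28). The −IAA value of *Gata6* became 4.57 without replicate 2 of that arm at 0 h. The difference between these responses was 0.11 (SE 0.54, adjusted p = 0.9832) for *Gata6* and −0.59 (SE 0.40, adjusted p = 0.6759) for *Foxa1*. No difference in the 3 or 6 h response passed for any of the 8 genes by edgeR or DESeq2, and 0 had an unadjusted p under 0.05, where 0% (3 h, with 1176 genes at an unadjusted p under 0.05) and 0.0255% (6 h) of all genes were called. The SE of 0.54 for *Gata6* leaves room for a difference of 1 on this scale, and its sign at 6 h changed without replicate 2 of the −IAA arm at 0 h (−0.65) or replicate 1 of the +IAA arm at 0 h (−0.09).

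In UTX-AID ESCs *Foxa1* was called in both arms at 6 h, with 2.05 (SE 0.37, adjusted p = 0.002232) without IAA and 1.94 (SE 0.38, adjusted p = 0.003525) with it. *Gata6* had log2 fold changes of 1.85 (SE 0.54, adjusted p = 0.05166) and 1.53 (SE 0.54, adjusted p = 0.1241), neither called, where 1.91% and 2.0% of all genes were called. The −IAA value of *Gata6* was called by DESeq2 (1.85, adjusted p = 0.02688), and it was also called without replicate 1 of −IAA UTX-AID ESCs at 0 h (3.14) or at 3 h (1.85), or without either replicate of the +IAA arm at 0 h (1.845 in each case). It became 1.17 (adjusted p = 0.2969) without replicate 2 of −IAA UTX-AID ESCs at 0 h. The +IAA value was called without either replicate of the −IAA arm at 0 h (1.53 in each case), and it ranged from 1.05 (adjusted p = 0.5593, without replicate 2 of its own arm at 0 h) to 2.28 (not called, without replicate 1). The differences between arms were −0.32 (SE 0.75) for *Gata6* and −0.10 (SE 0.53) for *Foxa1*, both with adjusted p = 0.9999. No difference passed for any of the 8 genes by edgeR or DESeq2 at 3 h (0.0123% of all genes called, 0 of the 8 at an unadjusted p under 0.05) or 6 h (0% called, with 558 genes at an unadjusted p under 0.05). At 6 h 1 of the 8, *Sox7*, had an unadjusted p of 0.04041, with 0 counts in both +IAA libraries at 0 h.

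Averaged over the RA times, IAA moved none of the 8 genes past the test in BAP1-AID ESCs, where 1.51% of all genes were called. An unadjusted p under 0.05 was seen for 2 of the 8 and for 6978 of all 15695 tested genes. *Hnf4a* was lower with IAA (log2 difference −0.83, SE 0.31, adjusted p = 0.05548), with 24, 51, 48, 62, 55 and 36 counts in the −IAA libraries from 0 to 6 h against 13, 24, 22, 25, 34 and 40 counts in the +IAA libraries. These ranges overlapped. *Foxa1* was higher with IAA by 0.41 (SE 0.16, adjusted p = 0.05907). With edgeR offsets for GC content and transcript length, *Foxa1* differed by 0.58 (adjusted p = 0.01595), still below the fold required. In UTX-AID ESCs 0 of the 8 were called by edgeR or DESeq2, where 0.135% of all genes were. There 1 of the 8 (*Sox7*) had an unadjusted p under 0.05, as did 2543 of all 16268 tested genes.

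The clones differed in level before RA. At 0 h in UTX-AID against BAP1-AID ESCs, 3 of the 8 genes and 10987 of all 16816 tested genes had an unadjusted p under 0.05. Of the 8 genes, 1 was called, where 23.2% of all tested genes were called. The count among the 8 became 3 with the adjusted p alone, 4 without replicate 1 of −IAA UTX-AID ESCs at 0 h and 0 without replicate 2 of +IAA BAP1-AID ESCs at 0 h. The share of all genes under these other settings is not given here. *Foxa1* was lower in UTX-AID ESCs by a log2 difference of −1.15 (SE 0.24, adjusted p = 0.0002421), with 15 to 20 counts against 24 to 60. This difference fell below the fold required without replicate 1 of −IAA (−0.98) or replicate 2 of +IAA BAP1-AID ESCs (−0.98) at 0 h, and with the correction for GC content and length (−0.83). *Gata6* (0.89, SE 0.38, adjusted p = 0.04324) and *Dab2* (−0.91, SE 0.30, adjusted p = 0.01126) had an adjusted p under 0.05 and a fold below the threshold. The median of the 8 was −1.09, against 0.05 over all genes. Of the 22 tested genes of extraembryonic endoderm 8 were called lower and 2 higher in UTX-AID ESCs at 0 h, with a median of −0.60. Of those lower, the matrix genes *Lamb1* (−1.59, SE 0.07), *Col4a1* (−1.42, SE 0.09) and *Lamc1* (−1.02, SE 0.07) had the smallest adjusted p. The 2 higher were *Krt8* (1.59, SE 0.23), a keratin, and *Apob* (2.69, SE 0.66), an apolipoprotein. The matrix gene *Lama1* was not called, and its mean was higher in UTX-AID (26.35 CPM) than in BAP1-AID ESCs (16.25 CPM). All of these genes were named after their values were seen.

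The response of *Gata6* at 6 h was smaller in UTX-AID than in BAP1-AID ESCs, by −2.17 on the log2 scale (SE 0.48, adjusted p = 0.01376), and it was the 1 gene of the 8 called in this comparison, where 0.648% of all genes were called. Its mean in UTX-AID against BAP1-AID ESCs was 0.567 against 0.306 CPM at 0 h and 1.85 against 4.46 CPM at 6 h. At 0 h the libraries of the clones overlapped (0.244 to 0.950 against 0.171 to 0.416 CPM), and the difference was not called. The call was lost without any 1 of 3 libraries at 0 h: replicate 1 of −IAA BAP1-AID (−1.89, adjusted p = 0.0517), replicate 1 of −IAA UTX-AID (−1.49, adjusted p = 0.1091) or replicate 1 of +IAA UTX-AID ESCs (−1.77, adjusted p = 0.08287). *Foxa1* differed by −0.71 (SE 0.32, adjusted p = 0.3114), which did not pass. With 1 clone of each kind, the tagged protein and the clone cannot be told apart.

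Most of the reported genes that accompany these factors in endoderm were not called at 6 h. Over all tested genes, 5.12% were called at 6 h in BAP1-AID and 2.61% in UTX-AID ESCs. Of 25 reported genes of extraembryonic endoderm, 1 was called higher and 1 lower of 22 tested in BAP1-AID ESCs, with a median log2 fold change of −0.11, and 1 was called, lower, of 21 tested in UTX-AID ESCs, with a median of −0.16. *Ihh*, the hedgehog ligand of visceral endoderm, had 0 to 3 counts at 0 h and 6 to 28 counts at 6 h in BAP1-AID ESCs (adjusted p = 0.04827), just inside the threshold. *Fst*, which encodes the activin antagonist follistatin, fell by 2.02 (SE 0.17, adjusted p = 2.371e-06) on the log2 scale in BAP1-AID and by 1.43 (SE 0.41, adjusted p = 0.03269) in UTX-AID ESCs. *Afp* and *Ttr*, secreted products of visceral endoderm, stayed at or below 15 and 40 counts in all libraries. The summed level of the list ranged from 1373 to 1578 CPM at 0 h and from 1270 to 1398 CPM at 6 h in BAP1-AID ESCs. Its largest parts at 0 h were, as means, *Lamc1* (471 CPM), *Nid2* (299 CPM), *Lrp2* (229.5 CPM) and *Sparc* (197 CPM), a matrix gene that ESCs also express.

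Of 17 genes of definitive endoderm and anterior streak, those called at 6 h were lower. Over all tested genes, 5.12% were called in either direction in BAP1-AID and 2.61% in UTX-AID ESCs. In BAP1-AID ESCs 2 of 15 tested were lower: *Otx2*, a homeobox factor of epiblast and anterior endoderm, fell by 2.43 (SE 0.07, adjusted p = 1.686e-10), and *Fgf8*, a streak ligand, fell by 2.12 (SE 0.30, adjusted p = 0.0002498). In UTX-AID ESCs 1 of 14 was lower, *Otx2*, by 3.34 (SE 0.13, adjusted p = 1.487e-10), from 1702 to 2291 counts at 0 h to 168 to 246 counts at 6 h. The list had a median log2 fold change of −0.35 in BAP1-AID ESCs and of −0.22 in UTX-AID ESCs.

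The list named partners and repressors held 12 genes, among them the GATA cofactors *Zfpm1* and *Zfpm2* and the repressor *Nanog*. Other ESC markers and FGF pathway genes such as *Fgf4*, *Fgfr1* and *Fgfr2* were also in this list. Of the 12 genes, 1 was called at 6 h in BAP1-AID ESCs. *Nr0b1*, which encodes the nuclear receptor DAX1 and is expressed in ESCs, rose by 1.00 (SE 0.04, adjusted p = 7.539e-09), at the edge of the fold required. It was the 1 call of this list in the 2 clones, where 5.12% (BAP1-AID) and 2.61% (UTX-AID) of all tested genes were called. The list medians were −0.03 in BAP1-AID and −0.05 in UTX-AID ESCs. Of the 8 paralogs, 6 were tested in each clone and 1 was called. This was *Gata3*, a trophoblast factor, in UTX-AID ESCs (adjusted p = 0.04043), at 0 to 8 counts at 0 h and 12 to 21 counts at 6 h. It had 10 to 27 counts at 0 h in BAP1-AID ESCs.

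**Figure D4:**
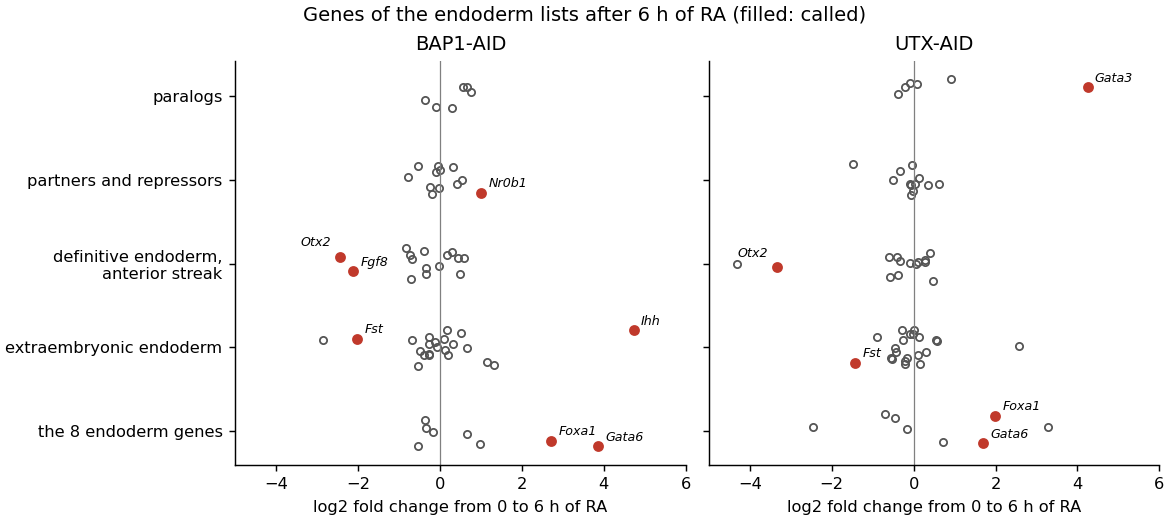
Log2 fold change from 0 to 6 h of RA for every tested gene of the 8 endoderm genes and of 4 lists, in BAP1-AID (left) and UTX-AID ESCs (right), with filled symbols for called genes and vertical positions spread only for display. Genes with 0 counts in all libraries at 0 or 6 h are left out. Most genes of each list lie within 1 of 0, and *Otx2* and *Fst* are lower in both clones.

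Markers of other cells were read beside these values, and their part in the RA response was not tested. At 6 h, 8 markers of fibroblasts or feeders summed to 5.77 to 6.53 CPM in BAP1-AID and 3.49 to 4.86 CPM in UTX-AID ESCs, against 7.36 to 11.7 and 4.73 to 7.43 CPM at 0 h. *Thy1* was lower at 6 h in BAP1-AID ESCs (−1.20, adjusted p = 0.0005955). The 6 trophoblast markers summed to at most 2.77 CPM in any library, with *Ascl2* lower in BAP1-AID ESCs at 6 h (−1.64, adjusted p = 0.008922), and the 5 mesoderm markers summed to at most 2.67 CPM. The 5 neural markers summed to 119 to 130 CPM at 6 h in BAP1-AID ESCs and to 65.8 to 82.9 CPM in UTX-AID ESCs, against 120 to 134 and 66.4 to 86.1 CPM at 0 h. In bulk RNA, more cells with a transcript and more transcript per cell cannot be told apart, and this holds for *Gata6* and *Foxa1*.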

How the data were processed

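The authors aligned polyA RNA-seq reads to mm39 with HISAT2 2.2.1, handled alignments with SAMtools 1.19 and deposited 1 table of estimated counts per gene and library, made with StringTie 2.2.1, whole-numbered and not normalized. StringTie derives counts from coverage (the most frequent value above 0 was 4), so neighbouring low counts are coarser than single reads. The annotation and strandedness are not given in the sources used here. The 24 columns were matched to the library labels by name.

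Counts were tested with edgeR 4.0.16 (R 4.3.3, quasi-likelihood, TMM factors 0.961 to 1.03, filterByExpr with a minimum count of 10 and total of 15), in 1 fit per clone for RA and IAA and 1 fit of all 24 libraries for the clones, with Benjamini-Hochberg adjustment over all genes tested. All adjusted p-values are of this test unless DESeq2 1.42.0 is named. CPM values use TMM factors over all libraries, and levels per kilobase use the canonical transcript of GENCODE vM39. The labels do not say whether replicates were separate cultures, so p-values measure only the spread between these libraries (biological coefficient of variation 11.6% and 11.9%). The fits were tested on simulated data. Alternatives were DESeq2, RLE size factors, no filter, a replicate block, 1 fit of all libraries, the adjusted p alone, offsets for GC content and transcript length, and each library left out. The 8 genes and the lists were chosen with earlier results of these data known. Beside the 8 genes, the rule named the RA targets, up to 3 called genes per list and direction with the smallest adjusted p, genes overlapping or within 10 kb of a member, and the 3 genes most correlated with each member above 1 CPM. Some genes of these lists are not reported here and were left out of the list counts and sums. Figures were drawn with matplotlib 3.10.9.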

Additional observations from a re-analysis of the deposited data

Results flagged for a closer look

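The difference between the clones in the RA response at 6 h was tested for 17 genes, the 8 endoderm genes and others with an RA response given above, and was called for 1, *Gata6*. Over all genes 109 were called in this comparison, 88 with a lower and 21 with a higher value in UTX-AID ESCs. Among the 88 called lower, *Gata6* ranked 27 by size. Its response was smaller in UTX-AID than in BAP1-AID ESCs by −2.17 on the log2 scale (SE 0.48, adjusted p = 0.01376), with all 4 UTX-AID libraries at 6 h (at most 2.18 CPM) below all 4 BAP1-AID libraries (at least 3.82 CPM), and the call was lost without any 1 of 3 libraries at 0 h. *Otx2* (−0.91, adjusted p = 0.000831) and *Nr0b1* (−0.66, adjusted p = 3.223e-05) had an adjusted p under 0.05 and a difference below the fold required. *Hoxb1* differed by −2.98 (SE 1.29, adjusted p = 0.2939) and *Cyp26a1* by −1.02 (SE 0.35, adjusted p = 0.1502), and neither passed. *Gata3* differed the other way, by 3.69 (SE 1.44, adjusted p = 0.2267), and did not pass.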

How the results depend on the processing

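Of the counts of called genes among the 8, 114 of 124 alternatives other than leaving out a library stayed within 1.5 times the reported count, and of 364 values of single genes, 351 kept their direction and side of the threshold, 11 passed it newly, 1 no longer passed and 1 reversed. With the adjusted p alone, the count became 1 for 6 against 3 h in BAP1-AID ESCs (*Gata6*) and 3 for the clones at 0 h. Without the filter and with all 24 libraries in 1 fit, the count became 2 at 3 h in UTX-AID ESCs (*Gata6* added) and 2 at 6 h in their −IAA arm. DESeq2 gave 2 in that arm, and 2 in the +IAA arm (*Sox7* and *Foxa1*). With the correction for GC content and length the clones differed at 0 h in 2 genes, *Gata6* (1.28) and *Dab2* (−1.09), and no longer in *Foxa1* (−0.83), and the difference of *Foxa1* from 3 to 6 h in BAP1-AID ESCs reversed to 0.043. The cause was not tested, and the share of all genes called under each alternative is not given here.

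With the replicate block, 2 genes were called at 6 h in the −IAA arm of UTX-AID ESCs, with *Gata6* at 1.90 (adjusted p = 0.03225), and the block changed no other call. The numbers were not taken as pairs, since same-numbered deviations correlated at −0.08 to 0.21 in BAP1-AID and 0.04 to 0.20 in UTX-AID ESCs over 15 pairs of groups each.

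When single libraries were left out, the count of called genes ranged from 1 to 2 at 3 h in UTX-AID ESCs and at 6 h in each of their arms, from 2 to 3 at 6 h over both arms (*Sox7* added without replicate 1 of −IAA UTX-AID ESCs at 0 h), from 0 to 4 for the clones at 0 h and from 0 to 1 for their RA response. The 0 came without replicate 2 of +IAA BAP1-AID ESCs at 0 h and the 4 without replicate 1 of −IAA UTX-AID ESCs at 0 h (*Sox7*, *Hnf4a* and *Dab2* added). *Gata6* was added without replicate 2 of the −IAA arm of BAP1-AID ESCs or of either arm of UTX-AID ESCs at 0 h (1.13 to 1.25), and *Dab2* without replicate 1 of +IAA UTX-AID ESCs at 0 h (−1.31). *Dab2* took the place of *Foxa1* without replicate 1 of −IAA BAP1-AID ESCs at 0 h (−1.08). A sign changed for values that had not passed. For *Gata6* the difference between arms ranged from −0.51 to 0.75 (3 h) and −0.65 to 0.61 (6 h) in BAP1-AID ESCs and from −1.66 to 0.39 and −1.61 to 0.43 in UTX-AID ESCs, and its IAA effect in UTX-AID ESCs from −0.63 to 0.048. For *Foxa1* the change from 3 to 6 h ranged from −0.17 to 0.12 in BAP1-AID ESCs, and the difference between arms from −0.61 to 0.10 (3 h, BAP1-AID) and −0.37 to 0.12 (6 h, UTX-AID). The 6 h change ranged from −0.42 to 0.21 for *Dab2* in UTX-AID ESCs, and from −0.67 to 0.11 for *Foxa2* and −2.92 to 0.30 for *Sox17* in BAP1-AID ESCs. Counts under about 30 per library limit what can be seen for *Sox7*, *Sox17* and *Foxa2*. Such counts also lie under the folds of the called genes. At 0 h *Gata6* held 9 to 21 counts in BAP1-AID ESCs and *Foxa1* 15 to 20 counts in UTX-AID ESCs.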

Other observations

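For the 4 of these genes with a mean above 1 CPM, the genes whose level followed theirs most closely over the 12 group means were found among 12328 genes with a mean above 1 CPM, by Pearson's r of log2(CPM + 0.5). Those most like *Gata6* were *Aurkc* (r = 0.987), *Dusp9* (0.986) and *Arg1* (0.986). Those most like *Foxa1* were *2610528J11Rik* (0.979), *Wnt8a* (0.974), a Wnt ligand, and *Ccdc120* (0.966). *Gata4* was followed less closely, by *Dkk3* (0.901), *Lrig3* (0.885) and *Hps6* (0.879), and *Dab2* by *Shb* (0.936), *Mideas* (0.932) and *E2f7* (0.930). The 12 points share their clone and RA times, and the r values describe these groups only.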
